A study of Mus musculus with 10 samples.

Results

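The genes described are 9 scaffold genes of the postsynaptic density, Dlg1, Dlg2, Dlg3, Dlg4, Shank1, Shank2, Shank3, Dlgap1 and Homer2. They were chosen by gene name alone, and they made up 9 of the 52636 genes in the count table, on 10 of its rows, because the name Dlg2 stands on 2 gene IDs. RNA came from S1BF, the barrel field of primary somatosensory cortex in which the whiskers are mapped, of C57BL/6 mice at postnatal day 17. Each library was made from 3 µg of RNA with an Illumina kit whose labels name no strand marking. The 4 cKO libraries came from Nex-cre mice with Rxra cKO (the floxed allele Rxratm1Krc/J), the 2 Hetero libraries from Nex-cre mice with Rxra cKO-Het, and the 4 Loxp libraries from mice with the same floxed Rxra and no Cre named in the labels. Rxra encodes retinoid X receptor alpha, a ligand-activated transcription factor. All 3 groups carry its floxed allele, and cKO differs from Loxp in both the deletion and the Cre. Nex-cre expresses Cre from the Neurod6 locus in forebrain excitatory neurons, and most interneurons and glia of the tissue lie outside that lineage. Nothing in the labels says whether libraries come from separate animals, and p-values therefore measure only the spread between these samples, which may be technical.

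The postsynaptic density is a protein mesh under the membrane of excitatory synapses. DLG proteins (MAGUKs) sit closest to the membrane, where their PDZ domains hold NMDA receptors, adhesion proteins and, through auxiliary subunits, AMPA receptors. DLGAP proteins bind the guanylate kinase domain of the DLG proteins and link them to SHANK proteins deeper in the mesh, and SHANK proteins bind HOMER proteins, which tie them to metabotropic glutamate receptors and to internal calcium stores. In the cortex these proteins set how many receptors a synapse holds, and human variants in several of the genes are known from autism and intellectual disability.

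All 10 rows passed the low-count filter that left 18455 genes for testing, so no member was lost. In GENCODE M21 (GRCm38) the DLG genes lie on different chromosomes. Dlg1 (ENSMUSG00000022770) spans chromosome 16, 31663443 to 31875129. Dlg2 (ENSMUSG00000052572) spans chromosome 7, 90476672 to 92449247, Dlg3 (ENSMUSG00000000881) spans chromosome X, 100767722 to 100818410, and Dlg4 (ENSMUSG00000020886) spans chromosome 11, 70016942 to 70047522. Shank1 (ENSMUSG00000038738) lies on chromosome 7, 44310253 to 44360572, Shank2 (ENSMUSG00000037541) on chromosome 7, 144001928 to 144424494, and Shank3 (ENSMUSG00000022623) on chromosome 15, 89499623 to 89560261. Dlgap1 (ENSMUSG00000003279) lies on chromosome 17, 69969073 to 70821413, and Homer2 (ENSMUSG00000025813) on chromosome 7, 81600481 to 81707527; Homer2 is the one on the minus strand. The counts are per gene over its exons and do not separate isoforms. Reads of an antisense partner cannot be told apart from those of the gene, but the annotated partners that had rows were small. Over all 10 libraries 1700008O03Rik, which overlaps 339 exonic bases of Shank1, had 283 counts beside 204235 of Shank1, Gm15609 had 285 beside 111106 of Shank3, and Gm44570 had 52 beside 13902 of Homer2. The other Dlg2 row (ENSMUSG00000108872) was not found in this annotation and held 1.71 to 3.34 CPM (counts scaled by TMM-adjusted library totals), against 415 to 598 CPM on the main row, so Dlg2 below means the main row.

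The sequence before the start sites is shown for 4 members, as a stretch that a nuclear receptor or an activity-induced factor could read. Sequence farther from the start sites was not searched. RefSeq (GRCm38.p6) windows of 250 bases ending just before an annotated start were found for 7 of the 9 genes, 17 windows in all; Shank1 and Shank2 had none in the table used. Both strands were searched for AGGTCA, the half-site that RXR and its partners bind (TGACCT on the other strand), and for GCGTGGGCG, the motif of the EGR factors (CGCCCACGC on the other strand). The motifs were chosen after expression values had been seen, and they share no bases in these windows. The windows are given 5′ to 3′ on the gene's strand, in lower case with motif matches in capitals.

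Dlg4, chr11:70016953-70017202, plus strand: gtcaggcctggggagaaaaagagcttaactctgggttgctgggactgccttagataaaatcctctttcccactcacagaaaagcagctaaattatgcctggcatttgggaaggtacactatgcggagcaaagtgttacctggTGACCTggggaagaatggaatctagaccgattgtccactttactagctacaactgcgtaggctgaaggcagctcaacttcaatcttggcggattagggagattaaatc

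Shank3, chr15:89499358-89499607, plus strand: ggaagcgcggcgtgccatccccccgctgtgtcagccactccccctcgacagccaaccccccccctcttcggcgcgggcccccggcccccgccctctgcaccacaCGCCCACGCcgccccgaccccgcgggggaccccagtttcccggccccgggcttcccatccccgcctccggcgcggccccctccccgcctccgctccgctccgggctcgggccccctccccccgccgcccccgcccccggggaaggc

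Dlgap1, chr17:69968823-69969072, plus strand: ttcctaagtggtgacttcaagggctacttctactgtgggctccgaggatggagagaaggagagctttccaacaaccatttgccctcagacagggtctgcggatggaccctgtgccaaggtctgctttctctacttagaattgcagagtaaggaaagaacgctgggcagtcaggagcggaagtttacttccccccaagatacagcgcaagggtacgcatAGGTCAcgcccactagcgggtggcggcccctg

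Dlgap1, chr17:70561497-70561746, plus strand: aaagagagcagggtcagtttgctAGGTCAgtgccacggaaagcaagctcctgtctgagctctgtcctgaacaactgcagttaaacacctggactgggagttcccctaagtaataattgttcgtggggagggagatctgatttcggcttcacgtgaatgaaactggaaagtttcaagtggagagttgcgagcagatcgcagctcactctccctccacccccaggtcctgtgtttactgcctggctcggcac

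Homer2, chr7:81706926-81707175, minus strand: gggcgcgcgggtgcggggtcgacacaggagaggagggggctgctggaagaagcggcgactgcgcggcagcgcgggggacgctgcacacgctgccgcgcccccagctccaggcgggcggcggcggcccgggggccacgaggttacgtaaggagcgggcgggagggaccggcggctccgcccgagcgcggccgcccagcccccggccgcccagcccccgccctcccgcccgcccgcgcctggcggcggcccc

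AGGTCA occurred in 3 of the 17 windows, which belong to Dlg4 and Dlgap1, and in 4607 (14.0%) of all 32851 windows of the same length. In Dlg4 the match was on the other strand and began at position −108 from one start site, and the other Dlg4 windows held no match. In Dlgap1 the matches began at −32 from one start and −227 from another. GCGTGGGCG occurred in 1 window, that of Shank3, at −146 on the other strand, and in 176 (0.536%) of all windows. The Homer2 window held no match and is shown because Homer2 had the largest fold change of the 9 genes against Loxp. A match is only a run of letters, and no binding was measured here.

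Totals of counts ran over 19332990 to 26086337 per library, and mitochondrial genes took 2.80% to 3.68% of counts. Rxra counted over the whole gene was not lower in cKO, with 29.0 to 32.3 CPM in cKO, 23.2 and 26.4 CPM in Hetero, and 21.6 to 31.8 CPM in Loxp; such a count does not check the loss of a floxed exon. Neurod6, the gene that carries Nex-cre, had 32.9, 22.9, 38.1 and 24.0 CPM in cKO, 34.4 and 34.0 CPM in Hetero, and 66.7, 55.7, 61.9 and 34.9 CPM in Loxp. The library labelled Loxp 4 thus fell among the Cre libraries for this gene, and it is part of every difference from Loxp below. All 6 markers of excitatory cortical neurons were detected in every library, with summed levels of 5962 to 6466 CPM in cKO, 5741 to 6135 CPM in Hetero and 5321 to 6403 CPM in Loxp. Hetero 2 held choroid plexus RNA, with 739 CPM summed over 7 markers. The same sum was 7.25 CPM in Hetero 1, 3.55 to 22.5 CPM in cKO and 3.03 to 7.20 CPM in Loxp. Of these markers, Kcne2 and Otx2 each had no counts in some library of the series. Oligodendrocyte markers (8 of 8 detected) summed to 6030 to 10164 CPM in cKO, 6587 to 9593 CPM in Hetero and 8584 to 10933 CPM in Loxp. In bulk tissue, fewer cells of a type and less RNA per cell cannot be told apart.

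The levels of the 9 genes spanned a far wider range than any of them did between genotypes, although some neighbouring genes lay close together. Levels between genes are compared as the authors' FPKM, which divides by gene length. Dlg4 (PSD-95, the main scaffold of mature excitatory synapses) was by far the highest, at 248 ± 19.3 FPKM in cKO, 246 ± 4.52 in Hetero and 248 ± 10.4 in Loxp (SD, n = 4, 2 and 4), rank 104 of the 52636 genes by mean FPKM. Shank1 followed at 87.0 ± 11.6 FPKM in cKO, 85.1 ± 1.26 in Hetero and 77.9 ± 9.90 in Loxp. Dlg4 stood 2.99 times above Shank1 over the 10 libraries. Shank3 came next, with 55.2 ± 7.42 FPKM in cKO, 53.0 ± 0.820 in Hetero and 51.7 ± 4.62 in Loxp.

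Dlg3 and Dlg2 lay close together. Dlg3 (SAP102, the DLG protein of young synapses) had 43.6 ± 0.474 FPKM in cKO, 42.7 ± 3.35 in Hetero and 42.0 ± 2.52 in Loxp. Dlg2 (PSD-93) had 38.6 ± 3.78 FPKM in cKO, 39.3 ± 1.15 in Hetero and 37.4 ± 6.18 in Loxp. Dlg3 was above Dlg2 in 9 of 10 libraries, by 1.12 times on average. Shank2 had 29.2 ± 4.66 FPKM in cKO, 28.5 ± 0.349 in Hetero and 27.5 ± 4.40 in Loxp, and Dlgap1 (GKAP, the link between DLG and SHANK) had 28.0 ± 2.13, 27.4 ± 0.629 and 26.6 ± 3.20 FPKM in cKO, Hetero and Loxp. Shank2 was above Dlgap1 in 5 of 10 libraries, so the order of this pair is not set by the data. Dlg1 (SAP97, which is also found in epithelia and at other membranes) had 17.5 ± 1.80 FPKM in cKO, 17.2 ± 1.07 in Hetero and 18.7 ± 0.564 in Loxp.

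Homer2 was the lowest, at 4.97 ± 1.13 FPKM in cKO, 4.99 ± 0.259 in Hetero and 4.31 ± 0.529 in Loxp, rank 8029. Apart from these 2 pairs, each neighbouring pair kept its order in 10 of 10 libraries, and the order of the 9 group means was the same in cKO, Hetero and Loxp. Dividing CPM by the annotated exonic length gave the same order of all 9 genes, but Dlg4 then stood at 93.7 CPM per kb beside 83.5 for Shank1, so the distance between them depends on the gene length used. The plot of FPKM by gene shows the steps between genes and the overlap of the genotypes at each step.

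**Figure D1:**
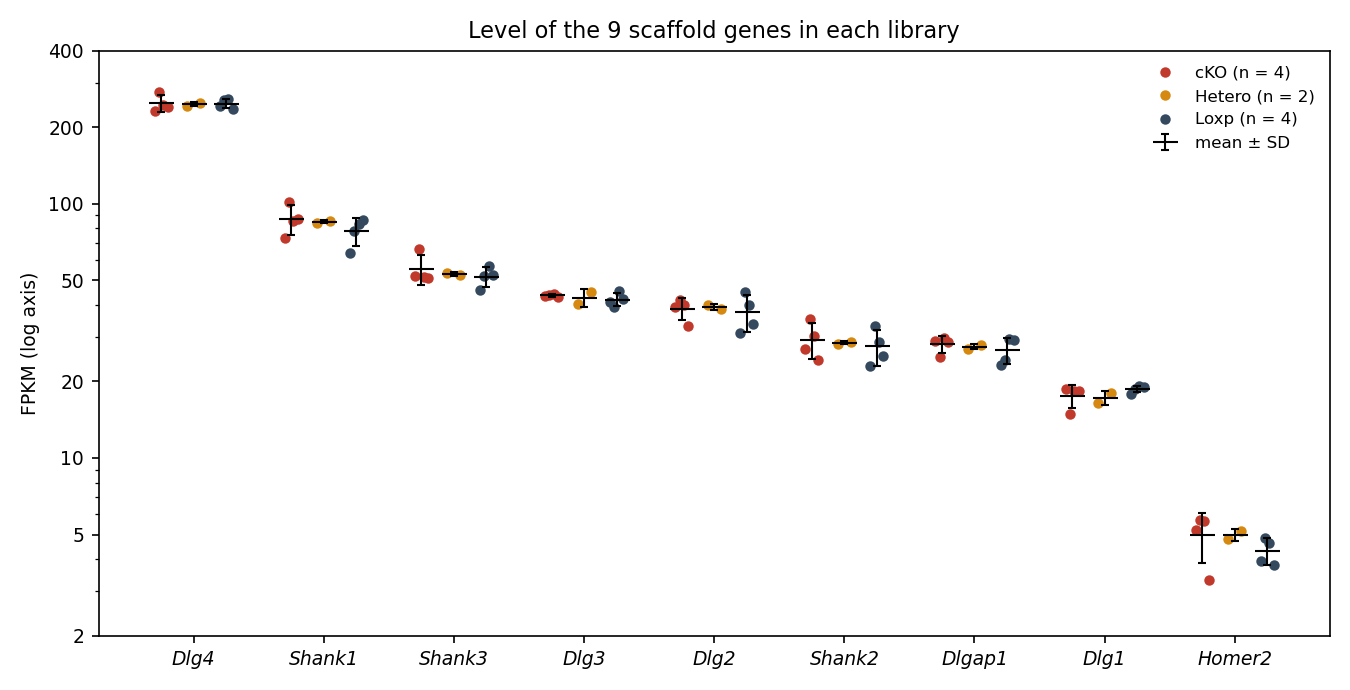
FPKM of each scaffold gene (log axis) in every library, with cKO, Hetero and Loxp side by side and bars for mean ± SD (n = 4, 2 and 4). The genes run from Dlg4 near 248 FPKM down to Homer2 under 6 FPKM, and the 3 genotypes overlap at every gene.

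Within each family the order of the genes by mean share was the same in all 3 genotypes. Dlg4 took 71.3% ± 1.66 of the FPKM of Dlg1 to Dlg4 in cKO, 71.3% ± 0.299 in Hetero and 71.7% ± 0.742 in Loxp (SD, n = 4, 2 and 4). The size of this share depends on the gene length used. Per kb of annotated exons, Dlg4 stood at 93.7 CPM beside 43.1 for Dlg3, 31.3 for Dlg2 and 15.1 for Dlg1. The Dlg1 share was 5.07% in cKO, 4.99% in Hetero and 5.41% in Loxp, and its lowest value, 3.94%, was in cKO 2. Among the SHANK genes, Shank1 took 50.7% ± 2.20 in cKO, 51.1% ± 0.513 in Hetero and 49.5% ± 2.13 in Loxp, followed by Shank3 with 32.2%, 31.8% and 33.0% and Shank2 with 17.0%, 17.1% and 17.5% in cKO, Hetero and Loxp. By the authors' FPKM, Dlgap1 was a minor member of its family, but this too depends on the gene length used. In CPM, which is not divided by length, Dlgap1 averaged 467 over all 10 libraries. Dlgap3 averaged 1051 CPM, Dlgap4 426 and Dlgap2 84.5. Of the DLGAP FPKM sum, Dlgap3 took 72.0% in cKO, 71.1% in Hetero and 71.2% in Loxp, while Dlgap1 took 8.50%, 8.52% and 8.66%. Shares in the HOMER family spread most over the libraries. Homer2 took 18.2% of its sum in cKO (12.8% to 25.2%), 16.8% in Hetero (15.7% to 17.9%) and 13.6% in Loxp (11.6% to 15.9%). The cKO range covered that of Hetero and overlapped that of Loxp. Homer1, which includes the activity-induced short form Homer1a in its gene count, took 75.3% in cKO, 76.7% in Hetero and 81.4% in Loxp. These shares were not tested.

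**Figure D2:**
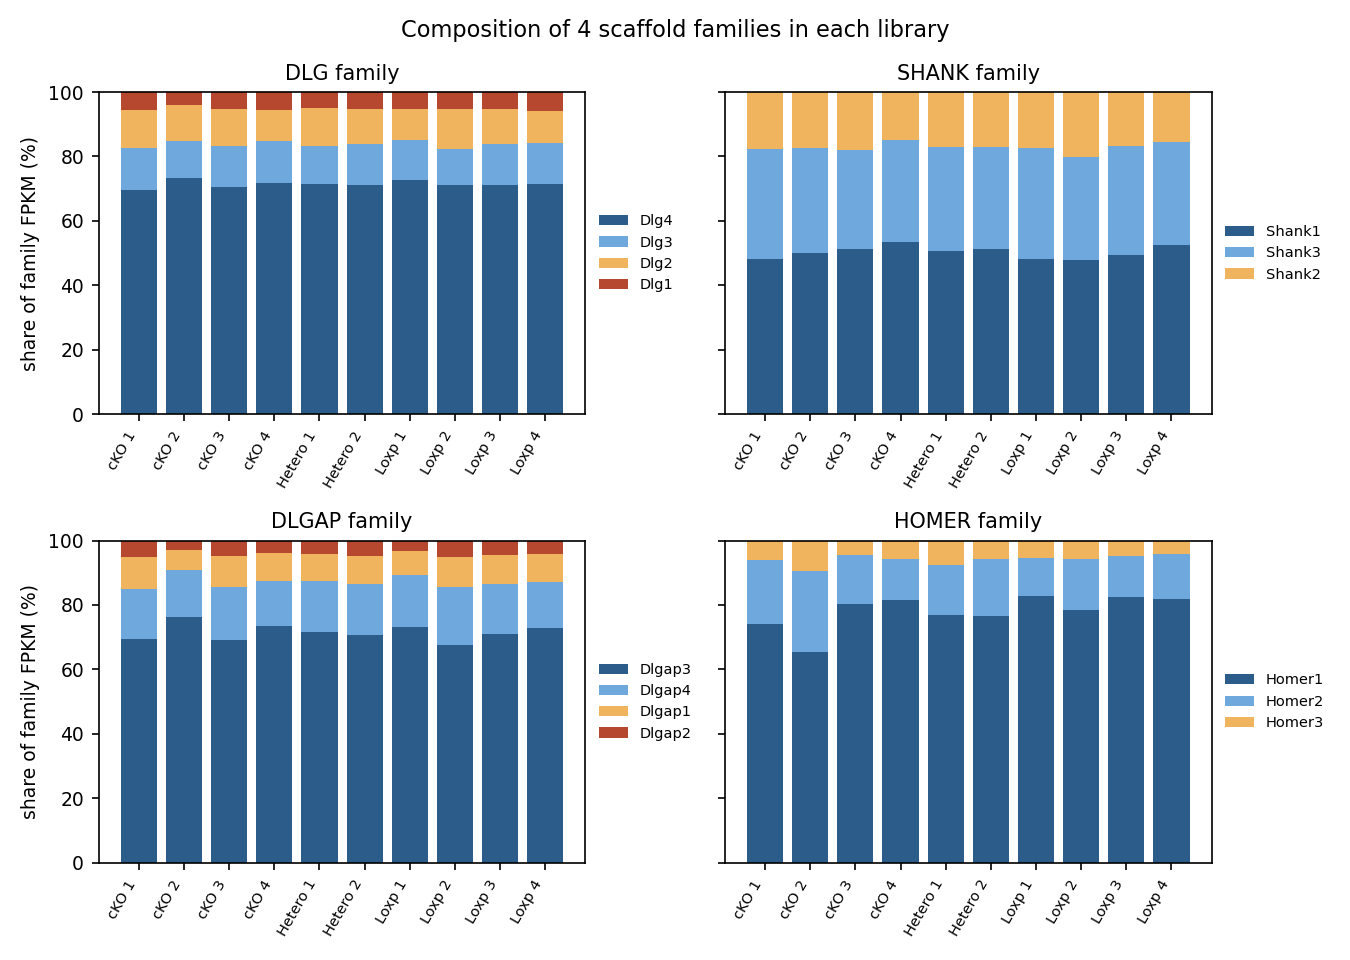
Share of each gene in the summed FPKM of its family (y axis, percent) in each of the 10 libraries (x axis, cKO, Hetero, then Loxp), for the DLG, SHANK, DLGAP and HOMER families. Dlg4 takes 69.5% to 73.3% of the DLG sum in every library, whereas the Homer2 share runs over 11.6% to 25.2%. The size of the shares depends on the gene lengths behind the authors' FPKM.

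The comparison of cKO with Loxp asked whether scaffold transcripts differ when Rxra is deleted from excitatory neurons. None of the 9 genes passed the test, and fitted log2 fold changes ran over −0.096 for Dlg1 to 0.21 for Homer2. By edgeR's quasi-likelihood test with Benjamini-Hochberg adjustment over all 18455 genes, 0 of the 10 rows were called, where 0 genes in all (0.0%) were called at an adjusted p under 0.05. At an unadjusted p under 0.05 the count was again 0 of 10 rows, against 2.53% of all genes; DESeq2 and limma-voom also called 0 members. The groups overlapped for all 10 rows, where 1.54% of all genes had no overlap. Of the 9 genes, 8 had a positive log2 fold change, with a median of 0.073 over the 9. Of all tested genes 50.1% were positive, with a median of 0.00033. The count of 8 is not firm: without cKO 2, Dlg4 (−0.052), Shank3 (−0.0053) and Shank2 (−0.013) were negative.

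Dlg4 differed least. It had 1158, 1385, 1227 and 1208 CPM in cKO and 1212, 1283, 1301 and 1182 CPM in Loxp. Both the highest and the lowest of these 8 values were cKO libraries. The log2 fold change was 0.00033 (SE 0.0772, 95% interval −0.17 to 0.17, edgeR adjusted p = 1), which is an interval of 0.891 to 1.12 times the Loxp level. Dlg3 had 255, 257, 260.2 and 253 CPM in cKO and 243, 232, 268 and 246 CPM in Loxp. All 4 cKO libraries lay above the Loxp mean, but Loxp 3 lay above all of them, and the log2 fold change was 0.053 (SE 0.0722, edgeR adjusted p = 1). Dlg3 is X-linked, and Xist, the RNA that coats the inactive X, was at 3.24 and 0.209 CPM in cKO 2 and cKO 4 and at 0.236 CPM in Loxp 3, against 375 CPM or more in the other 7 libraries. Dlg3 in those 3 libraries stood at 257, 253 and 268 CPM, inside the range of the other 7 or just above it.

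Dlg2 spread more widely, with 523, 558, 532 and 441 CPM in cKO and 415, 598, 532 and 446 CPM in Loxp. Its high and low libraries were found in both groups, and the fitted log2 difference, 0.045 (SE 0.114, edgeR adjusted p = 1), turned to −0.034 without Loxp 1. The weakly counted other row of that name had 1.97, 1.73, 2.53 and 2.76 CPM in cKO and 2.26, 2.25, 3.34 and 2.07 CPM in Loxp, a log2 difference of −0.15 (SE 0.231), and turned to 0.036 without Loxp 3. Dlg1 was the one gene of the 9 with a negative value. It had 168, 134, 166 and 165 CPM in cKO and 162, 169, 173 and 171 CPM in Loxp. All 4 cKO libraries lay below the Loxp mean, but 3 of them lay above Loxp 1, the lowest Loxp library. The log2 fold change of Dlg1 was −0.096 (SE 0.0830, 95% interval −0.27 to 0.083, edgeR adjusted p = 1) and −0.021 without cKO 2. An exact two-sided permutation test of Dlg1 gave p = 0.2, the lowest of the 10 rows (the highest was 0.971), where 0.0286 is the smallest p that 4 against 4 libraries allow.

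The 3 SHANK genes, which form the deep layer of the density, all had small positive values. Shank1 had 775, 1078, 908 and 918 CPM in cKO and 677, 830.4, 887 and 906 CPM in Loxp. Here 3 of 4 cKO libraries were above every Loxp library, while cKO 1 was below all but Loxp 1. The log2 fold change was 0.16 (SE 0.111, 95% interval −0.082 to 0.40, edgeR adjusted p = 1), and 0.072 without Loxp 1. Shank3 had 463, 595, 461 and 458 CPM in cKO and 409.8, 465, 512 and 468 CPM in Loxp. In cKO, cKO 2 alone lay above the Loxp range, and the other 3 libraries lay close together just below the Loxp mean of 464 CPM. The log2 fold change of Shank3 was 0.092 (SE 0.0991, edgeR adjusted p = 1) and turned to −0.0053 without cKO 2. Shank2 had 291, 381, 329 and 264 CPM in cKO and 249.9, 360.0, 310.2 and 271 CPM in Loxp, with the fitted log2 difference at 0.086 (SE 0.126, edgeR adjusted p = 1). This value turned to −0.013 without cKO 2.

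Dlgap1 had 493, 426, 507 and 487 CPM in cKO and 399, 417, 506 and 496 CPM in Loxp. Both groups held low libraries, cKO 2 in one and Loxp 1 and Loxp 2 in the other. The log2 fold change of Dlgap1 was 0.073 (SE 0.0932, edgeR adjusted p = 1), with 0.015 without Loxp 1 and 0.13 without cKO 2. Homer2, a long-form HOMER protein with a coiled coil that joins SHANK to glutamate receptors, had the largest value. It stood at 66.3, 72.5, 71.8 and 42.1 CPM in cKO and at 50.1, 61.9, 59.3 and 47.7 CPM in Loxp. In cKO, 3 of 4 libraries lay above every Loxp library, and cKO 4 was the lowest of all 10 libraries. The log2 fold change of Homer2 was 0.21 (SE 0.149, 95% interval −0.12 to 0.53, edgeR adjusted p = 1), and exact permutation gave p = 0.4. Without cKO 4 it was 0.36 at an unadjusted p under 0.05, with edgeR adjusted p = 1 as well. Homer1, which is no member, went the other way at −0.28 (SE 0.170, edgeR adjusted p = 1), with 235, 178, 363 and 255 CPM in cKO and 341, 290.4, 359 and 267 CPM in Loxp; it was −0.14 without cKO 2 and −0.49 without cKO 3.

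**Figure D3:**
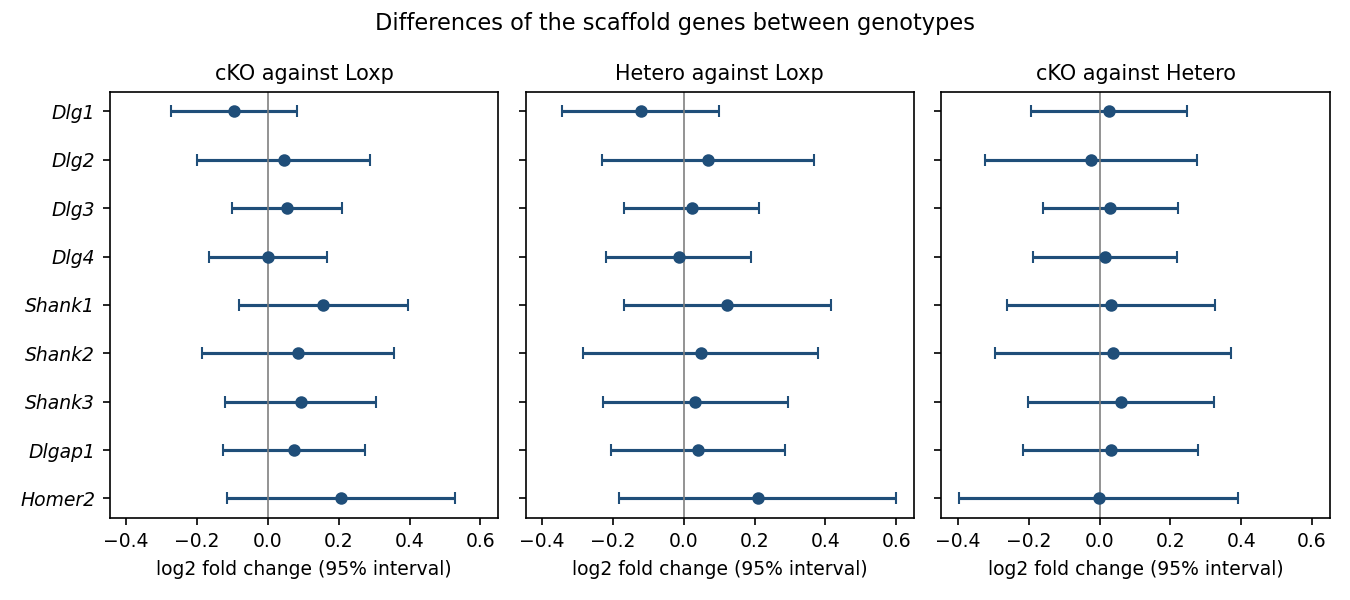
Fitted log2 fold change of each scaffold gene with its 95% interval (edgeR, all 10 libraries), one panel for each of the 3 comparisons. Every interval covers 0, and the widest are those of Homer2.

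The comparison of Hetero with Loxp put the same question to the heterozygous deletion, with Cre present. Again none of the scaffold genes passed: edgeR called 0 of the 10 rows at an adjusted p under 0.05, against 0.0% of all 18455 genes, and 0 of 10 at an unadjusted p under 0.05, against 2.54%. DESeq2 and limma-voom called 0 members too. The groups overlapped for all 10 rows, where 11.4% of all genes had no overlap. Log2 fold changes ran over −0.12 for Dlg1 to 0.21 for Homer2, with 7 of 9 positive and a median of 0.041, against 48.2% positive and a median of −0.0068 over all genes. This comparison uses the same Loxp libraries as the one of cKO with Loxp, so the values of the 2 comparisons are not independent.

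The 2 Hetero libraries lay close together for most of the genes. Dlg4 had 1214 and 1249.8 CPM in Hetero, Shank1 had 888 and 909.8, Shank3 had 479 and 469.6, and Shank2 had 305 and 311. For the last 3 of these genes both values exceeded the Loxp mean and stayed below the highest Loxp library, save Shank1 in Hetero 2. Homer2 had 60.8 and 65.7 CPM in Hetero, against 50.1, 61.9, 59.3 and 47.7 CPM in Loxp, and the log2 difference was 0.21 (SE 0.182, 95% interval −0.18 to 0.60, edgeR adjusted p = 1). Dlg1 had 148 and 162 CPM in Hetero, against 162 to 173 CPM in Loxp, and the log2 difference was −0.12 (SE 0.102, 95% interval −0.34 to 0.099, edgeR adjusted p = 1), with −0.056 without Hetero 1. Both Hetero libraries were below the Loxp mean for Dlg1, and Hetero 1 was below every Loxp library. Dlg2 had 532 and 512 CPM, Dlg3 had 237 and 265 CPM and Dlgap1 had 459 and 476 CPM in Hetero. The log2 fold changes of the other 7 genes were 0.12 for Shank1 (SE 0.135, and 0.040 without Loxp 1), 0.068 for Dlg2 (SE 0.139), 0.048 for Shank2 (SE 0.154), 0.041 for Dlgap1 (SE 0.114), 0.032 for Shank3 (SE 0.121), 0.023 for Dlg3 (SE 0.0884) and −0.015 for Dlg4 (SE 0.0946). Each of these 7 was smaller than its SE, and the other Dlg2 row, at 2.40 and 1.71 CPM in Hetero, stood at −0.28 (SE 0.291). With 2 libraries the intervals are wide, and exact permutation p-values of 0.267 to 0.933 cannot go below 0.0667. Hetero 2, which held the choroid plexus RNA, lay within the range of the other 9 libraries for each of the 9 genes. Without Hetero 2, Dlg3 turned to −0.060 and Homer2 stood at 0.15. Here and below, a fit without Hetero 1 or Hetero 2 rests on the other Hetero library alone.

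Between cKO and Hetero, which both carry Nex-cre and differ in the number of deleted alleles, the fitted differences spanned the narrowest range of the 3 comparisons. edgeR called 0 of 10 rows at an adjusted p under 0.05, against 0.0% of all genes, and 0 of 10 at an unadjusted p under 0.05, against 1.74%; DESeq2 and limma-voom called 0 members. The groups overlapped for all 10 rows, where 9.43% of all genes had no overlap. Log2 fold changes were −0.023 (Dlg2) to 0.060 (Shank3, SE 0.122), with a median of 0.031 over the 9 genes and 7 positive, against 52.5% positive and a median of 0.0078 over all genes. Homer2 stood at −0.0026 (SE 0.183, 95% interval −0.40 to 0.39); cKO 4 lay below both Hetero libraries and the other 3 cKO libraries above both. The other genes stood at 0.037 (Shank2, SE 0.155), 0.033 (Shank1, SE 0.136), 0.031 (Dlgap1, SE 0.114, and Dlg3, SE 0.0885), 0.026 (Dlg1, SE 0.102) and 0.015 (Dlg4, SE 0.0946), each smaller than its SE. For Dlg1 too, 3 cKO libraries lay above both Hetero libraries and cKO 2 below both. The 95% intervals of all 9 genes covered 0. Exact permutation gave p-values of 0.533 to 0.933 for the 10 rows.

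The genes differed in how steady they were. Over all 10 libraries the coefficient of variation of CPM was 4.76% for Dlg3, 5.33% for Dlg4, 7.42% for Dlg1 and 8.44% for Dlgap1. It was 10.03% for Shank3, 11.3% for Dlg2, 11.9% for Shank1, 13.5% for Shank2 and 17.1% for Homer2. The median over the 5358 tested genes of at least 40 CPM was 8.30%. Dlg3, Dlg4 and Dlg1 lay below that median, Dlgap1 close to it and the other members above it. Those genes were not matched to the level of each member. Summed over the 9 genes, FPKM was 519, 610.2, 550.4 and 530.4 in cKO, 537 and 551 in Hetero, and 492, 551, 566 and 528 in Loxp. The highest sum was that of cKO 2 and the lowest that of Loxp 1.

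Of the 36 pairs of scaffold genes, 1 passed the adjustment over pairs, Dlg2 with Shank2. Pearson's r of log2 CPM was 0.92 and Spearman's rho 0.90 (n = 10, permutation p = 0.0002 and 0.0008, adjusted over 36 pairs 0.0072 and 0.0288). Scaled by library size alone, rho was 0.83 and its adjusted permutation p 0.122, while r stayed past the adjustment at 0.92. Leaving out cKO 4 and Loxp 1, the libraries farthest from the Dlg2 median, r was 0.84. Both genes were high in cKO 2 and Loxp 2 and low in cKO 4, Loxp 1 and Loxp 4. The share of pairs among all genes that would pass was not computed, so this pair is not shown to be particular to scaffolds. Among all 18455 genes some had a higher r, such as 1700025G04Rik with Dlg2 (0.97) and Erc1 with Shank2 (0.97). With the group means removed 6 pairs passed on r, but that permutation shuffled the remaining values freely over all 10 libraries. Removing the means ties these values together, and those of the 2 Hetero libraries mirror each other. Its p-values may therefore be too small, and the count of 6 is not comparable with that of 1. Dlg1 had a negative r with 6 of the 8 other genes, down to −0.62 with Shank3, where rho was −0.067. None of these 6 passed the adjustment. Without cKO 2 and Hetero 1, the libraries farthest from the Dlg1 median, all 6 were positive, from 0.015 with Homer2 to 0.74 with Shank3. The next pairs were Shank1 with Shank3 (r = 0.83), Dlg2 with Homer2 (0.80), Shank2 with Homer2 (0.79), Dlg4 with Shank3 (0.77) and Dlg4 with Shank2 (0.76), each with a permutation p of 0.071 for r after adjustment. The Shank1 and Shank3 relation rested on cKO 2 and Loxp 1, without which r was 0.10, and that of Dlg4 and Shank3 fell to r = 0.060 without cKO 2 and Loxp 3. Within single genotypes there are too few libraries for a correlation.

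Some properties of whole libraries ran beside these values. Striatal projection neuron markers (7 of 7 detected, none at 0) summed to 897, 233, 604 and 641 CPM in cKO 1 to 4, 583 and 454 CPM in Hetero 1 and 2, and 1012, 247, 845 and 538 CPM in Loxp 1 to 4. The pair with the least, cKO 2 and Loxp 2, were the highest libraries of their group for Dlg2 and Shank2, and Loxp 1, with the most, was the lowest of all 10 libraries for Dlg2, Shank2, Shank1, Shank3 and Dlgap1. Loxp 3 and Loxp 4 did not follow that order: Loxp 3, with 845 CPM, was above the mean of the 10 libraries for Dlg2 and Shank2, and Loxp 4, with 538 CPM, was below it for both. Nor did cKO 1 and cKO 4. With the most in cKO, 897 CPM, cKO 1 was above that mean for Dlg2 (log2 deviation 0.047) and below it for Shank2 (−0.067). The lowest cKO library for both genes was cKO 4, with 641 CPM. Interneuron markers were also lowest in cKO 2 (680.0 CPM) and Loxp 2 (686 CPM), against up to 1018 CPM in cKO and 975 CPM in Loxp. Oligodendrocyte markers were lowest of all in cKO 2. Markers of 3 other cell types, all detected and none at 0, were highest in cKO 2 and Loxp 2. Astrocyte markers summed to 4524 CPM in cKO 2 and 4942 CPM in Loxp 2, against 3530 to 4234 CPM in the other 8 libraries, with Loxp 1 lowest. Oligodendrocyte precursor markers summed to 450.3 CPM in cKO 2 and 343 CPM in Loxp 2, against 227 to 276 CPM in the other 8, again with Loxp 1 lowest. Endothelial markers summed to 333 CPM in cKO 2 and 311 CPM in Loxp 2, against 194 to 241 CPM in the other 8. GC content moved too: relative to the mean of 10 libraries, the median log2 deviation of the top GC quartile of genes minus that of the bottom quartile was 0.23 in cKO 2 and −0.20 in Loxp 2, against −0.085 to 0.079 in the other 8. Shank3 (62.4% GC, above 98.3% of tested genes) and Shank1 (61.4%) are GC-rich, and Dlg1 (43.8%, above 20.1%) is GC-poor. In cKO 2 Shank3 and Shank1 were at their highest and Dlg1 at its lowest. Shank2 (55.0% GC) was at its highest there too. So were Homer2 (44.4%) and Dlg4 (46.8%), which lie below the median of tested genes, 49.6%. The part of marker content or GC in the scaffold values was not tested, apart from a fit with a GC offset, added after seeing the data, under which Shank3 stood at 0.041 in cKO against Loxp.

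**Figure D4:**
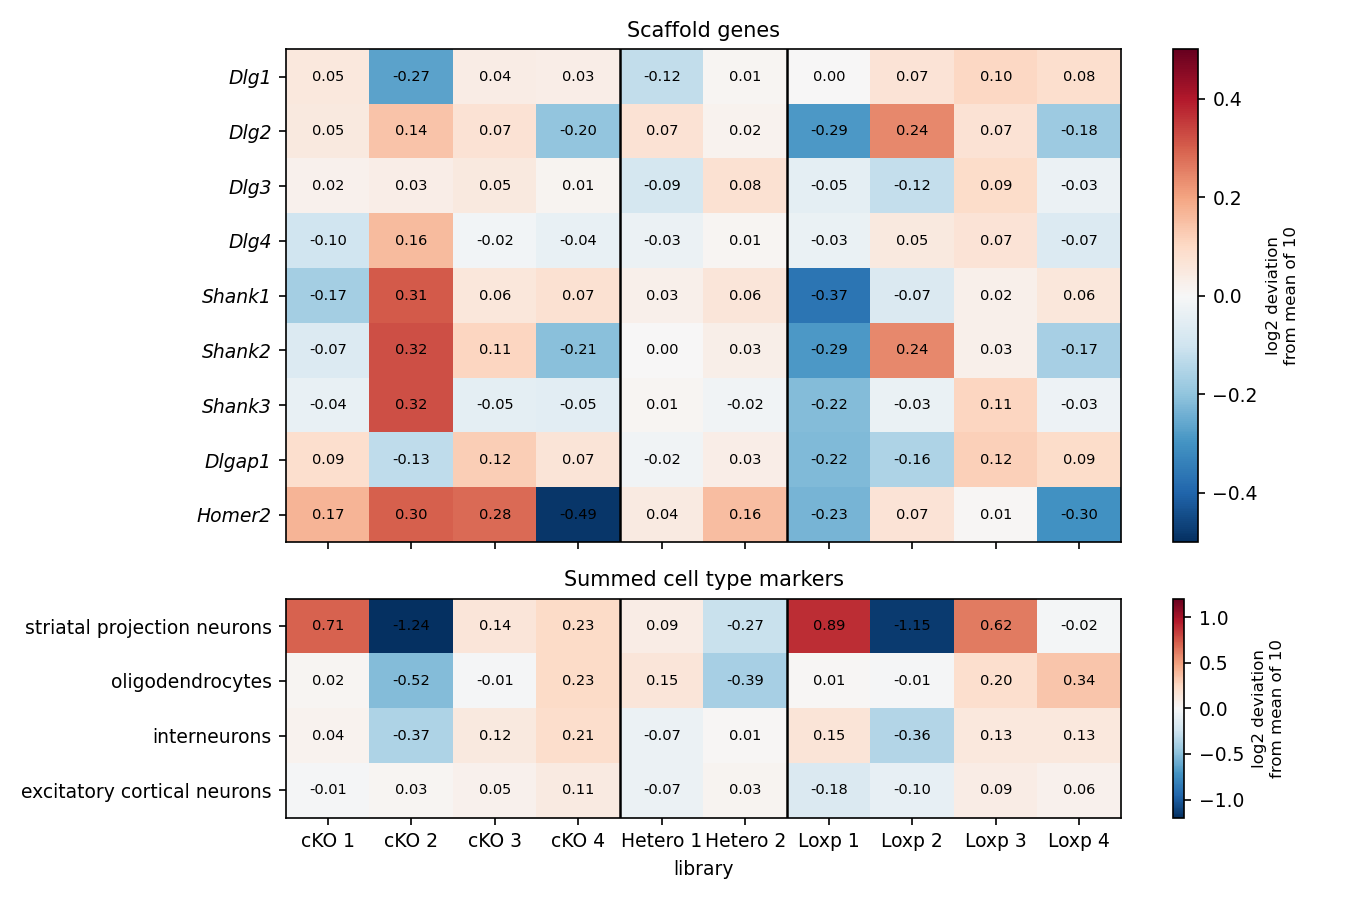
Upper map: log2 CPM of each scaffold gene minus its mean over the 10 libraries, with libraries in columns (cKO, Hetero, Loxp) and genes in rows. Lower map: the same for summed cell type markers on a wider colour scale; cKO 2 and Loxp 2 have the least striatal marker RNA (−1.24 and −1.15) and the highest Shank2 (0.32 and 0.24).

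Other genes of the synapse were read from 5 lists. Among 20 other excitatory scaffold and density enzyme genes, 13 were positive and 7 negative in cKO against Loxp (median 0.040) and in Hetero against Loxp (median 0.049), and 0 passed the adjusted threshold. Shisa7, an auxiliary protein reported for AMPA and GABA-A receptors, stood at 0.17 (SE 0.0903) in cKO against Loxp and at 0.096 without Loxp 1. Grip1, a PDZ protein that binds AMPA receptor tails, stood at 0.32 (SE 0.117) and Homer3 at 0.27 (SE 0.232) in Hetero against Loxp; Homer3 was 0.016 without Hetero 1 and 0.50 without Hetero 2. In cKO against Hetero, Grip1 stood at −0.19 (SE 0.117, and −0.11 without cKO 4) and the spine Rap regulator Sipa1l1 at 0.11 (SE 0.129, and 0.065 without cKO 3). All of these had an edgeR adjusted p = 1.

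Among 11 other MAGUK genes, 6 were positive in both comparisons with Loxp (medians 0.019 in cKO and 0.023 in Hetero). Dlg5, a distant relative of the DLG members, had 44.6, 74.5, 46.5 and 45.3 CPM in cKO and 38.3, 45.5, 43.0 and 41.2 CPM in Loxp, and its log2 difference of 0.33 (SE 0.145, edgeR adjusted p = 1) was 0.12 without cKO 2. Mpp3 stood at −0.15 (SE 0.118) in cKO against Loxp and at −0.049 without cKO 2. Mpp6 stood at −0.21 (SE 0.101) and Magi3 at 0.16 (SE 0.111) in Hetero against Loxp, and in cKO against Hetero Mpp6 was at 0.13 (SE 0.101) and Cask, which binds neurexins, at −0.12 (SE 0.103). Without Hetero 1, Mpp6 was −0.13 and 0.045 in these 2 comparisons.

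The receptors and adhesion proteins that the scaffolds hold were positive for 16 of 20 genes in cKO against Loxp (median 0.046) and for 14 of 20 in Hetero against Loxp (median 0.052), and 0 passed. The AMPA receptor subunit Gria1 stood at 0.12 (SE 0.0779) and the AMPA receptor auxiliary Cacng8 at 0.14 (SE 0.101, and 0.046 without cKO 2) in cKO against Loxp. In Hetero against Loxp the adhesion gene Lrrtm1 was at 0.19 (SE 0.140, and 0.29 without Loxp 1) and Cacng3 at 0.099 (SE 0.0858). In cKO against Hetero Cacng2 (stargazin) was at −0.12 (SE 0.106, and −0.062 without cKO 2) and Cacng3 at −0.090 (SE 0.0858).

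Cytoskeletal partners were positive for 7 of 12 genes in cKO (median 0.026) and 8 of 12 in Hetero (median 0.018) against Loxp. Dynll2, a dynein light chain that binds DLGAP proteins, stood at −0.090 (SE 0.0737) and the actin regulator Abi1 at 0.086 (SE 0.0748) in cKO against Loxp; Dynll2 was −0.045 without cKO 2 and Abi1 0.036 without cKO 1. Cyfip1, of the WAVE complex, stood at −0.16 (SE 0.0799) in Hetero against Loxp and 0.12 (SE 0.0798) in cKO against Hetero, and the SHANK partner Cttn (cortactin) at 0.13 (SE 0.0924) in Hetero against Loxp. Actn1 was at −0.10 (SE 0.0862) in cKO against Hetero. Of 6 inhibitory scaffold genes, 4 were in the table by symbol. Gphn (gephyrin, the main scaffold of inhibitory synapses) stood at −0.096 (SE 0.0744) in cKO against Loxp and −0.064 (SE 0.0911) in cKO against Hetero, and Nlgn2 at 0.090 (SE 0.0832) and 0.089 (SE 0.102) in cKO and Hetero against Loxp. Dmd was at −0.073 (SE 0.131) in cKO against Hetero. Without cKO 2, Gphn was −0.056 and Nlgn2 0.038 in cKO against Loxp, and Dmd was −0.025 in cKO against Hetero. Nlgn2 was 0.049 in Hetero against Loxp without Loxp 2, and Gphn turned to 0.011 in cKO against Hetero without Hetero 2.

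Activity-regulated genes, known from earlier results on these libraries to be lower in the Cre groups, were the list that lay apart in size. All 15 were negative in cKO against Loxp (median −0.46) and in Hetero against Loxp (median −0.88), while the 9 scaffold genes had medians of 0.073 and 0.041; 0 of the 15 passed the adjusted threshold, and 9 and 10 of them had an unadjusted p under 0.05, where 2.53% and 2.54% of all genes did. Egr2 averaged 15.5 ± 3.32 CPM in cKO and 31.0 ± 9.04 CPM in Loxp (log2 fold change −1.003, SE 0.212, edgeR adjusted p = 1). Egr3 stood at −0.51 (SE 0.136, edgeR adjusted p = 1) in the same comparison. In Hetero against Loxp the log2 differences were −1.11 for Fos (SE 0.207) and −1.40 for Egr2 (SE 0.279), each at an edgeR adjusted p = 0.599. These genes passed under only a few of the other settings, which are given next. In cKO against Loxp the main result held under 16 alternatives for Egr2 and 17 for Egr3. None of these genes passed with limma-voom or with the replicate block in either comparison with Loxp. With no low-count filter, the edgeR adjusted p was 4.47e-07 for Egr2 and 0.00649 for Egr3 in cKO against Loxp, and 4.35e-08 for both Fos and Egr2 in Hetero against Loxp. With DESeq2 the adjusted p was 0.0406 for Egr2 in cKO against Loxp and 0.00139 for both Fos and Egr2 in Hetero against Loxp. In cKO against Hetero 11 of 15 were positive (median 0.38), with Fos at 0.54 (SE 0.203) and Fosb at 0.56 (SE 0.262). The difference between this list and the scaffold genes was not tested.

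**Figure D5:**
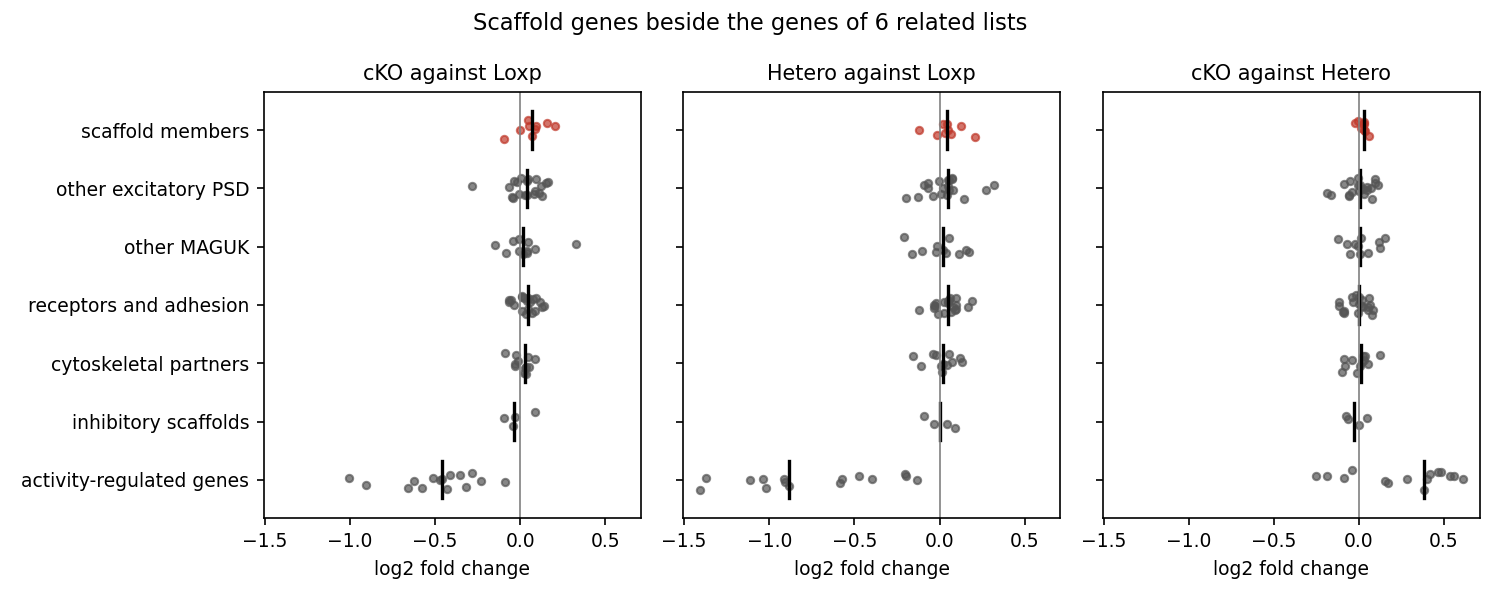
Log2 fold change (x axis) of each tested gene of the scaffold set (9 genes) and of 6 related lists (rows), in the 3 comparisons; the black bar is the median of the list. Scaffold genes lie between −0.12 and 0.21, and the activity-regulated genes lie below 0 in both comparisons with Loxp.

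For each scaffold gene, the genes with the most alike pattern were the pair with the highest Pearson's r of log2 CPM over the 10 libraries, among 18455 genes; with so many candidates and 10 libraries that share depth and composition, these are descriptions only. For Dlg2 and Shank2 a single gene of the pair is given, 1700025G04Rik for Dlg2 (r = 0.97) and Erc1, an active zone scaffold gene, for Shank2 (0.97). Dlg1 was closest to Gabra4, a GABA-A receptor subunit (0.97), and Mreg (0.96). Dlgap1 was closest to Clec16a (0.97) and Unc80, a subunit of the NALCN channel (0.97), and Homer2 to Map1b, a microtubule-associated protein gene (0.96), and Rab3c, of synaptic vesicles (0.95). Dlg3 was closest to Zfp668 (0.96) and Alk (0.93), and Dlg4 to Col28a1 (0.97) and Vasp, an actin regulator (0.95). Shank1 was closest to Dmrta1 (0.95) and Palb2 (0.95), and Shank3 to Gm21811 (0.96) and Lrp10 (0.95).

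In the authors' deposited table, 0 of the 10 rows had a p-value under 0.05 in either of their comparisons. The lowest p in the authors' deposited table was 0.204, for Shank1, in cKO against Loxp and 0.113, for Homer2, in Hetero against Loxp. Their log2 fold changes for these 2 rows were 0.16 and 0.21 in the authors' deposited table. Of all genes with an adjusted p there, 0 of 29220 in cKO against Loxp and 25 of 27904 in Hetero against Loxp were under 0.05.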

How the data were processed

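Read counts per gene were deposited by the authors, who used mm10 and featureCounts 1.5.0-p3 according to the submitters' processing notes. Which aligner, gene models and test they used is not given in the sources used here. The authors also deposited FPKM per library and the log2 fold changes and p-values of their own tests. Totals were 19332990 to 26086337 counts per library. No pair of libraries was a duplicate (chi-square per gene 5.10 to 43.0 over 45 pairs). All 10 libraries were fitted together with edgeR 4.0.16 in R 4.3.3 (TMM, filterByExpr, glmQLFit, glmQLFTest, a mean per group). Benjamini-Hochberg adjustment ran over the 18455 genes tested, at a threshold of 0.05; the common biological coefficient of variation was 14.9%. Log2 CPM used a prior count of 2. Exact permutation tests used 70 or 15 arrangements, and correlations 100000 resamples (scipy 1.17.1). Fold changes and intervals are on the log2 scale.

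The members and lists were chosen with earlier results of these data known. Named are the members, Rxra, Neurod6, Xist, the genes of each list with the 2 smallest p in each comparison, and the 2 genes most like each member; a few genes that this rule names are not reported here. Coordinates and overlaps came from GENCODE M21, in which 52403 of 52636 gene IDs were found. Alternatives were other scalings, filters, tools (DESeq2 1.42.0, limma 3.58.1) and covariates, a replicate block, and each library left out.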

Additional observations from a re-analysis of the deposited data

Results flagged for a closer look

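Shank3 stood at 594.6 CPM in cKO 2, while the other 3 cKO libraries lay at 458 to 463 CPM; the gap took 0.963 of the group's range, above Dixon's 95% critical value for 4 samples. Dlg1 stood at 134 CPM in the same library, against 165 to 168 CPM in the other cKO libraries (gap over range 0.924). The other row named Dlg2 (ENSMUSG00000108872) stood at 3.34 CPM in Loxp 3, against 2.07 to 2.26 CPM in the other Loxp libraries (0.850). With 20 groups of 4 examined, chance alone flags about 1 in 20.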

How the results depend on the processing

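Genes called by edgeR numbered 0 in each comparison. With no low-count filter they were 32 in cKO against Loxp, 68 in Hetero against Loxp and 39 in cKO against Hetero. With DESeq2 they were 2, 17 and 3, and with the replicate block 1 and 1 in the comparisons with Loxp. Leaving out each library gave 0 to 1, 0 to 15 and 0 to 14 (15 and 14 without Hetero 1, 1 without cKO 2); the cause was not tested. No scaffold gene was called under any alternative. The lowest adjusted p of a member was 0.922 in cKO against Loxp and 1 in the others. Of 180, 160 and 160 member values under the alternatives, 170, 148 and 134 kept their direction. Homer2 was under an unadjusted p of 0.05 in cKO against Loxp without cKO 4 and with no low-count filter. Correlated pairs numbered 6 with group means removed, where the permutation p-values may be too small, against 1 in the main setting.

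The labels do not say whether the replicate numbers pair the samples. Deviations of same-numbered cKO and Loxp libraries correlated at 0.095, 0.20, 0.042 and 0.32. Each of these libraries correlated best with its own number, a hint from the data and not the design. With the replicate block these values turned: Dlg4 −0.0011 in cKO against Loxp, Rxra 0.0033 in Hetero against Loxp, and in cKO against Hetero Shank1 −0.042, Dlg2 0.017, Dlgap1 −0.072, Dlg1 −0.025, Homer2 0.069, the other Dlg2 row −0.066 and Sipa1l1 −0.024. With Xist as a covariate Dlg4 was −0.014, 0.0080 and −0.022 in the 3 comparisons, and in cKO against Hetero Shank1 was −0.043, Shank3 −0.0061, Homer2 0.056 and the other Dlg2 row −0.021. With a GC offset, added after seeing the data, Shank3 was −0.00048 in Hetero against Loxp and Homer2 0.0045 in cKO against Hetero. Dlg4 was −0.0017 in cKO against Loxp with limma-voom and 0.0016 in Hetero against Loxp with library size alone, and Homer2 was 0.0052 in cKO against Hetero with no low-count filter.

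Leaving out each library turned some directions, and the lowest and highest values follow. In cKO against Loxp they were −0.052 and 0.034 for Dlg4, −0.0053 and 0.14 for Shank3, −0.013 and 0.19 for Shank2, −0.034 and 0.15 for Dlg2, and −0.26 and 0.036 for the other Dlg2 row. In Hetero against Loxp they were −0.033 and 0.0096 for Dlg4, −0.060 and 0.10 for Dlg3, −0.010 and 0.17 for Dlg2, −0.022 and 0.086 for Shank3, −0.016 and 0.098 for Dlgap1, −0.027 and 0.15 for Shank2, and −0.19 and 0.010 for Rxra. In cKO against Hetero they were −0.037 and 0.096 for Dlg1, −0.042 and 0.048 for Dlg4, −0.054 and 0.11 for Shank1, −0.043 and 0.092 for Shank3, −0.067 and 0.11 for Shank2, −0.068 and 0.040 for Dlg2, −0.078 and 0.15 for Homer2, −0.048 and 0.12 for Dlg3, −0.095 and 0.40 for the other Dlg2 row, and −0.14 and 0.011 for Gphn. The cause of these turns was not tested. Among the 9 genes the lowest count in a library was 1006, for Homer2 in cKO 4.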
